A study of Triticum dicoccoides with 12 samples.

Results

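The response of the drought-resistant wild emmer genotype Y12-3 (R) to terminal drought was described from 3 arrays of droughted plants and 3 arrays of well-watered plants, 6 of the 12 arrays of the series. The arrays were chosen by the (R) in their titles, and no measured value was used to choose them. All 61115 wheat probe sets of the array were described, and 38398 (62.8%) passed the filter on low signal and were tested. Wild emmer, Triticum turgidum subsp. dicoccoides, is a tetraploid wild relative of cultivated wheat. The plants of each group were 10 weeks old, in reproductive growth, and stood in a mix of 4 parts quartz sand to 1 part peat. The tissue is labelled phyllome, which covers leaf-like organs. The other 6 arrays hold the drought-susceptible genotype A24-39 (S) in the same 2 regimes. They were used for the shared estimate of spread and to test where the response of R differed from that of S. Each genotype is 1 line, so a difference between them cannot be told apart from any other difference between the lines. The labels do not tell whether replicates are different plants, nor how long or severe the drought was. P-values therefore reflect variation among the arrays at hand, some of which may be technical. The longer description ends in the same well-watered wording for every sample, and the groups were taken from the titles, which match the treatment labels.

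Terminal drought is a water shortage that sets in during the reproductive phase and lasts to the end of the season. Leaves that lose water are known to close their stomata through abscisic acid, to lower the transcripts of the light reactions and the Calvin cycle, and to raise those of protective proteins and of sugar and amino acid metabolism. The comparison asks which transcript levels of the resistant line move under such drought, by how much, and from which starting level.

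Fewer probe sets lay above the control level on droughted than on well-watered R arrays. The number of probe sets above the control level was 21848, 23885 and 22073 on the droughted arrays (replicates 1 to 3), against 27343, 24454 and 33042 on the well-watered arrays. The control level is a signal of 129, the 95th percentile of 23 probe sets that target no wheat transcript. The groups did not overlap (exact permutation test, two-sided, p = 0.1, the smallest that 3 against 3 arrays allow). Well-watered replicate 3 stood apart from the other arrays of R, with a median signal of 152, against 103 and 78.1 on replicates 1 and 2 and 58.6 to 79.5 on the droughted arrays. Spiked hybridization controls were also brightest there, with a geometric mean signal of 17657, against 6902 and 10212 on the other well-watered arrays and 4741 to 6986 under drought. Their part in the results was not tested, and the counts of calls, of large changes and of detection are also given without this array. The 3′ to 5′ signal ratio of the ubiquitin control transcript, one sign of RNA quality, was 0.24 ± 0.0124 under drought and 0.258 ± 0.0695 with water (SD, n = 3 each; exact permutation test, p = 0.9). That of the sucrose synthase control was 12 ± 3.38 under drought and 20.7 ± 7.52 with water (SD, n = 3 each; exact permutation test, p = 0.2). Its 5′ probe set measured only 154, 101 and 264 with water, near the control level, against 1398 to 1581 under drought. This ratio therefore says little about RNA quality. Of the leaf markers, petC and FBP could be matched. Their brighter probe sets lay above the control level on all 6 arrays. No grain storage protein gene could be matched.

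**Figure D1:**
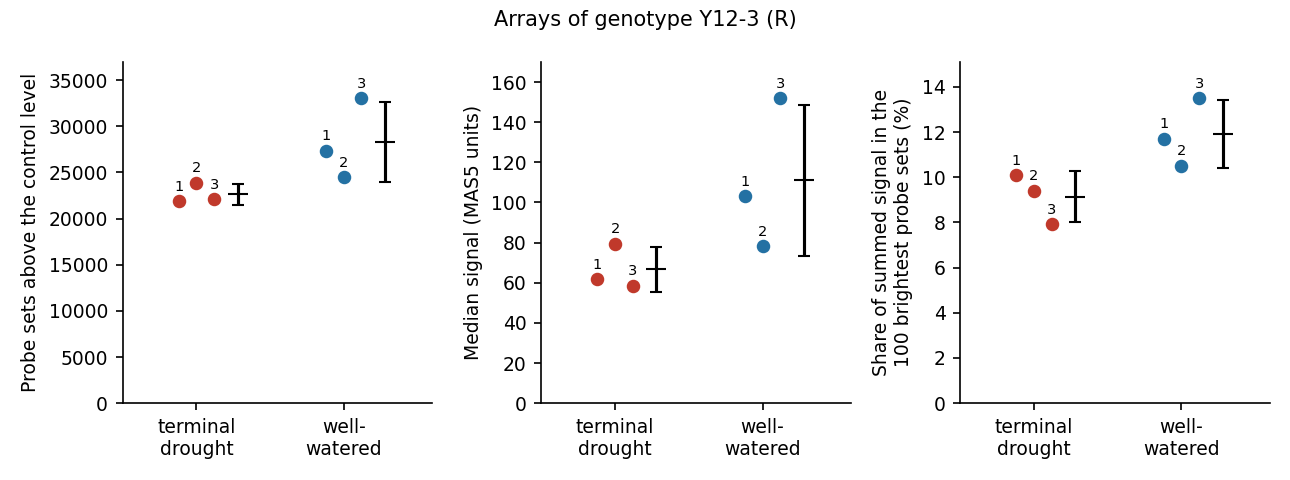
Number of probe sets above the control level, median signal, and share of the summed signal in the 100 brightest probe sets, for the 3 droughted and the 3 well-watered arrays of R. Points are arrays with their replicate number, and bars are mean ± SD. Well-watered replicate 3 is highest in all 3 panels, and the groups do not overlap in the first and the last panel.

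Drought changed 12824 probe sets in R, or 33.4% of those tested (limma, adjusted p under 0.05). Of these, 5216 (13.6% of the tested) were higher under drought and 7608 (19.8%) were lower. The median log2 change of the called higher probe sets was 1.65 and that of the called lower ones was −1.83, while all tested probe sets together had a median of −0.322 and quartiles of −1.07 and 0.45. Signals of the 3 droughted arrays lay wholly outside those of the 3 well-watered arrays for 12490 of the called probe sets, and for 17631 (45.9%) of all tested. Geometric mean signals of the called higher probe sets had a median of 2244 under drought and 603 with water. For the called lower ones the medians were 187 under drought and 745 with water, and for those not called they were 120 and 149. The split between higher and lower depended on how arrays were scaled to each other. Higher probe sets made up 40.7% of the calls as deposited, 63.8% with equal medians, 51.7% with quantile normalization, 80.4% with arrays set equal on the hybridization controls and 44.8% with arrays set equal on the poly-A controls. Without well-watered replicate 3, 4675 were higher and 6120 lower.

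As deposited, falls outnumbered rises at cut-offs of up to 8-fold, and rises outnumbered falls from 16-fold. Among all calls the excess of falls turned at equal medians (7744 higher, 4398 lower). It also turned with quantile normalization (6227 and 5811) and hybridization control scaling (8596 and 2093). Changes of at least 4-fold were called for 1903 probe sets higher under drought (4.96% of the tested) and for 3162 lower (8.23%). At 8-fold or more there were 784 higher and 887 lower, at 16-fold or more 352 higher and 289 lower, and at 64-fold or more 94 higher and 34 lower. At 128-fold or more, 37 were higher and 13 lower. The excess of rises at 64-fold held under each of the 25 alternatives tried. Not all of these could move it. An S array left out, the R arrays alone, the replicate block, no trend and no filter do not alter the change of a probe set in R. They gave the same 94 and 34. As a ratio the excess was smallest without droughted replicate 3, with 105 higher and 64 lower, and it was 110 against 31 without well-watered replicate 3. At 16-fold it turned with a pseudocount of 1, which gave 440 higher and 503 lower, and without droughted replicate 3, which gave 394 higher and 452 lower. Sizes are on the log2(signal + 16) scale, which understates changes of dim probe sets.

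**Figure D2:**
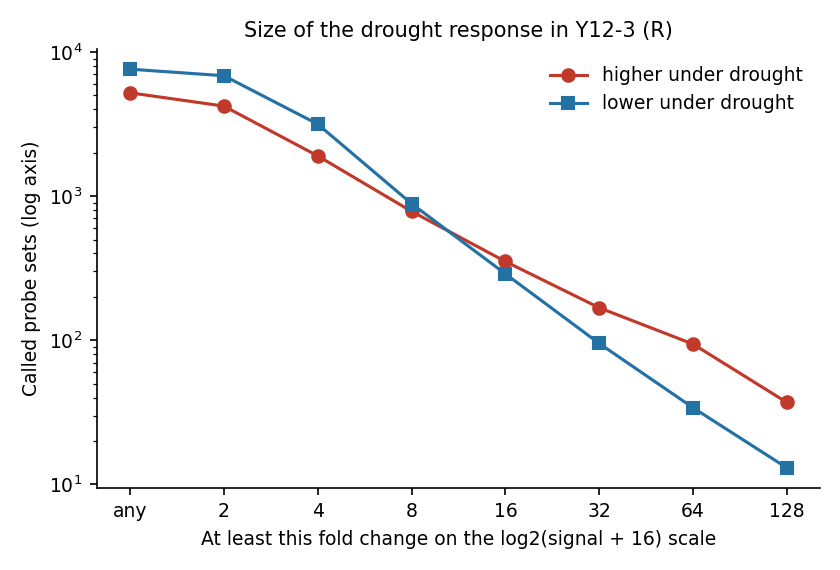
Number of called probe sets (log axis) that changed by at least the fold on the horizontal axis, separately for probe sets higher and lower under drought in R. As deposited, falls outnumber rises up to 8-fold (887 against 784), and rises outnumber falls from 16-fold (352 against 289). The excess of falls among all calls depends on scaling.

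The response was then read against the starting level, the mean log2 signal of the 3 well-watered R arrays. The tested probe sets were ranked by it into 5 classes of equal size. Signals of different probe sets are not on 1 scale of transcript amount, so the classes order brightness on the array. The share called rose with brightness, from 10.4% in class 1 (signal 4.7 to 81.3) over 15%, 32.1% and 48.5% to 61% in class 5 (1182 to 121640). Class 2 fell below class 1 in 4 alternatives, with 11.8% against 15.3% at equal medians, 11.9% against 16.3% with quantile normalization, 13.1% against 18.9% with hybridization control scaling and 9.61% against 10.6% without well-watered replicate 3. The median standard error of the change was 0.671 in class 1 and 0.261 in class 5, so the dim classes were measured less well. Among called probe sets, class 1 held 726 higher and 69 lower, and class 5 held 1703 higher and 2984 lower. Large changes were divided in the same way. Changes of at least 16-fold were called higher for 137 probe sets and lower for 0 in class 1, and higher for 7 and lower for 242 in class 5. A dim probe set has little room to fall and a bright one little room to rise, so these counts describe the reach of the measurement as well. The filter on low signal also favours rises in class 1. A probe set dim with water could pass it through the 3 droughted R arrays alone.

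The median log2 change was 0.09 in class 1, −0.56 and −0.55 in classes 2 and 3, −0.29 in class 4 and −0.33 in class 5. Without well-watered replicate 3 they were 0.35, −0.43, −0.44, −0.29 and −0.38. The starting level shares its arrays with the change, which by construction lifts the change of the dimmest class. The filter can lift it too, and classes made from S keep that filter. Without a filter, the dimmest class of all probe sets by the level from R had a median of −0.195. When the classes were made from the 3 well-watered S arrays, which do not enter the change in R, class 1 had a median of −0.23 and the others lay between −0.42 and −0.24. Class 1 then held 593 higher and 317 lower calls. The upper classes were little altered, with a median of −0.33 and 1704 higher against 2995 lower in class 5. The direction of class 5, with the level from R, depended on scaling, at 0.140 with equal medians and 0.593 with hybridization control scaling. Single arrays moved the dim classes most. Relative to the mean of the other 2 well-watered arrays, well-watered replicate 3 had a median of 0.61 in the dimmest class made from S and −0.12 in the brightest. Well-watered replicate 2 had −0.65 and 0.14, again against the other 2. The droughted arrays were set against the mean of all 3 well-watered arrays. They had −0.19, 0.06 and −0.35 in the dimmest class and −0.44, −0.30 and −0.23 in the brightest.

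**Figure D3:**
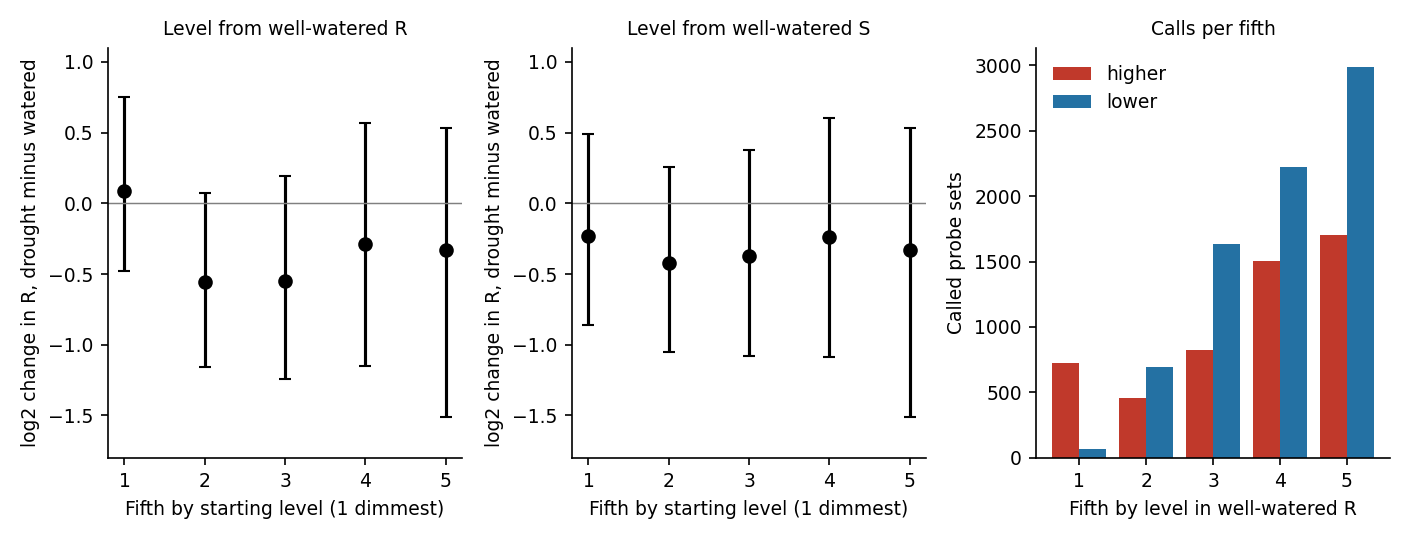
Left and middle, median log2 change in R (drought minus watered) with quartiles as bars, for 5 equal classes of starting level taken from well-watered R or from well-watered S arrays. Right, number of called probe sets per class by direction, classes from well-watered R. The dimmest class has a median of 0.09 with the level from R and −0.23 with the level from S, and calls run from 726 higher and 69 lower in class 1 to 1703 higher and 2984 lower in class 5.

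Some transcripts passed the control level in 1 regime only. Of all 61115 probe sets, 485 lay above it on the 3 droughted arrays and on 0 of the 3 well-watered ones, and 1515 lay above it on the 3 well-watered arrays and on 0 of the droughted ones. A further 16448 were above it on all 6 arrays and 21893 on none. The drought-only probe sets had a median signal of 337 under drought, 97 of them averaged over 1000 and 12 over 10000. The water-only ones had a median of 268 with water, with 63 over 1000 and 4 over 10000. Without well-watered replicate 3 the numbers were 820 and 1841, and without well-watered replicate 2 there were 2991 water-only probe sets. An array left out removes 1 condition from the rule, so these numbers could only stay or rise. Well-watered replicate 3 alone accounts for 6468 of the 8605 probe sets above the control level on no droughted and 1 well-watered array. The order of the 2 numbers depended on scaling, with 799 and 867 at equal medians and 1245 and 350 with hybridization control scaling. In S, whose arrays were not used for these sets, 166 (34.2%) of the drought-only probe sets had the same pattern on 0 and 3 arrays, against 1.7% of all probe sets. Of the water-only ones 287 (18.9%) had it in S, against 1.38% of all.

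The brightest transcripts of the leaf were largely exchanged. Of the 100 probe sets with the highest mean signal under drought and the 100 highest with water, 25 were shared. Of the 100 brightest with water, 76 were called lower under drought and 0 higher, with a median log2 change of −1.66. Of the 100 brightest under drought, 63 were called higher and 7 lower, with a median of 1.35. Of all tested probe sets, 19.8% were called lower and 13.6% higher, and of class 5 by starting level 61% were called. These lists were chosen on the arrays compared, so the counts are a description. They were not drawn under the other scalings, on which the direction of class 5 depended. The 100 brightest probe sets of an array held 9.13 ± 1.1% of its summed signal under drought and 11.9 ± 1.51% with water (SD, n = 3 each; exact permutation test, p = 0.1). By contrast 1143 ± 84.9 probe sets exceeded a signal of 10000 under drought and 982 ± 58.7 with water (p = 0.1, the same exact test).

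The platform annotation, dated 2007, pairs 1273 probe sets with 771 genes, nearly all given by a locus number alone. No function is given here to a locus number, and the probe sets without a gene are not named. Of the 969 tested probe sets with a gene, 190 were higher and 256 lower under drought, or 46% called against 33.4% of all tested. The 3 locus-numbered genes brightest with water were LOC100049018, LOC543448 and LOC732707. LOC732707 measured 11171, 39501 and 39149 under drought and 94188, 77302 and 114040 with water, a log2 change of −1.86 ± 0.40 (adjusted p = 0.0023, limma). The call was lost with hybridization control scaling, at −0.93 (adjusted p = 0.18). LOC100049018 measured 74418, 84768 and 59361 under drought and 127990, 89947 and 151430 with water. Its change of −0.74 (adjusted p = 0.036) and that of LOC543448, −0.81 (adjusted p = 0.0054), turned to 0.19 and 0.12 with hybridization control scaling. That of LOC100049018 was past the threshold in 11 of the 25 alternatives, and lost its call without droughted replicate 1 or 3 or well-watered replicate 1 or 3. Also among the brightest under drought were LOC542871, with 57416 to 78976 under drought and 37414 to 53557 with water (adjusted p = 0.057), and LOC543372, with 46378 to 69455 and 52272 to 65711 (adjusted p = 0.86). Neither passed the threshold, but LOC542871, whose groups did not overlap, passed it under 8 of 25 alternatives, such as 1.08 at equal medians (adjusted p = 0.0031, limma) and 0.75 without well-watered replicate 3 (adjusted p = 0.04, limma). It also passed without droughted replicate 3 or well-watered replicate 2 of S. LOC543372 passed under 1, quantile normalization.

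The annotation holds 13 genes with a symbol, and 8 of these genes could be tested. Of 14 gene lists for leaf and drought functions, 8 matched a symbol and 6 had a tested gene. The list headed photosynthesis and the Calvin cycle had 3 genes on 4 tested probe sets, of which 4 were called lower and 0 higher, against 19.8% lower and 13.6% higher of all tested. Their median change was −2.64, against −0.322 for all tested. One of the genes, GAPN, is a cytosolic enzyme outside the Calvin cycle. FBP, fructose bisphosphatase, an enzyme of carbon fixation and sugar synthesis, measured 472, 1921 and 2707 under drought and 10501, 15085 and 12564 with water. GAPN, a glyceraldehyde phosphate dehydrogenase that forms NADPH, measured 224, 963 and 1667 under drought and 7953, 10400 and 7526 with water. petC, the Rieske subunit of the cytochrome complex between the photosystems, measured 10878, 24027 and 24579 under drought and 55784, 48897 and 68748 with water. In each of the 3 genes droughted replicate 1 was the lowest array and the groups did not overlap. The log2 changes were −3.20 ± 0.45 for FBP (adjusted p = 0.0001), −3.54 ± 0.49 for GAPN (adjusted p = 8.9e-05) and −1.62 ± 0.29 for petC (adjusted p = 0.00057, limma). Relative to the median of all tested they were −2.88, −3.22 and −1.30. A second FBP probe set measured 19.8, 58.6 and 29.9 under drought, below the control level, and 198, 79.5 and 441 with water (adjusted p = 0.018, limma). It lay above that level on only 2 well-watered arrays, so no lower bound of its fold is given. It lost its call under 4 of 25 alternatives, among them droughted replicate 1 or well-watered replicate 3 left out. With signals set to the control level its change was −0.74 (adjusted p = 0.12, limma), and the call was lost as well. petC lost its call with hybridization control scaling, at −0.69 (adjusted p = 0.28).

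Smaller falls were measured for genes of the methyl cycle, of peroxide removal and of the cytoskeleton. SAHH, the S-adenosylhomocysteine hydrolase that clears the product of methylation reactions, measured 24149, 28164 and 25258 under drought and 69949, 36997 and 46220 with water (log2 change −0.93, adjusted p = 0.0099). CAT1, a peroxide-removing catalase, measured 19936, 29673 and 27555 under drought and 36107, 48660 and 33195 with water (log2 change −0.61, adjusted p = 0.043). TUBA, an alpha-tubulin of the microtubules, measured 6454, 10067 and 9847 under drought and 15248, 16131 and 11466 with water (log2 change −0.71, adjusted p = 0.035). The groups did not overlap in any of the 3, as in 45.9% of all tested probe sets. Relative to the median of all tested the changes were −0.61, −0.29 and −0.39. With hybridization control scaling CAT1 and TUBA turned to 0.32 and 0.22 and a second SAHH probe set to 0.03, and none of the 4 SAHH and CAT1 probe sets kept a call. TBP1, the TATA-binding protein of the transcription machinery, was higher, with 1676, 1476 and 1274 under drought and 1048, 970 and 614 with water (log2 change 0.77, adjusted p = 0.025). It lost its call under 6 of 25 alternatives, among them each of well-watered replicate 3 and droughted replicates 1 and 2 left out, and its highest adjusted p was 0.15. SAHH lost its call under 3 of 25, the median, hybridization control and poly-A control scalings, and its second probe set under 12, among them any 1 droughted R array, well-watered replicate 1 or 3 of R, droughted replicate 3 or well-watered replicate 1 of S left out. In the same direction, CAT1 lost its call under 16 of 25 and TUBA under 9, including droughted replicate 1, well-watered replicate 1 and well-watered replicate 2 left out for both. CAT1 also lost it without droughted replicate 3 of R, droughted replicate 1 of S or any 1 well-watered array of S. XTH, a xyloglucan endotransglucosylase of the cell wall, measured 12.7 to 55.3 under drought and 11.8 to 28.3 with water and lay below the control level on all 6 arrays. The 5 untested genes were COR410 (a dehydrin), TTHV, THI1.1 and THI1.2 (thionins) and PFK (a glycolytic kinase). Each lay above the control level on 0 droughted arrays and on at most 1 well-watered array.

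Among locus-numbered genes, the 8 with the highest changes measured over 1000 on each droughted array and at most 651 on each well-watered one. LOC542888 measured 12847, 11714 and 11864 under drought and 12, 2.25 and 112 with water, at least 94-fold higher (adjusted p = 1.3e-06, limma). A fold is given as "at least" where all arrays of a group lie below the control level, with those arrays set to it. LOC100125738 measured 33248, 9769 and 11126 under drought and 241, 74 and 29.7 with water. LOC542799 measured 19856, 15821 and 15061 under drought and 148, 241 and 38.8 with water. The log2 changes of the last 2 were 7.24 ± 0.67 (adjusted p = 3.8e-06) and 6.99 ± 0.46 (adjusted p = 2.9e-07). LOC606366 was at least 61.6-fold higher but varied most between droughted arrays, at 22921, 9987 and 2191, against 17.5, 77.6 and 96.2 with water. LOC606323 was the brightest of the 8 on a droughted array, with 54914, 24831 and 12988 under drought and 629, 234 and 576 with water (log2 change 5.84 ± 0.57, adjusted p = 5.8e-06). LOC543338 was at least 41-fold higher (adjusted p = 1.2e-07) and LOC543293 at least 24.9-fold higher (adjusted p = 2.2e-05), and LOC543201 changed by 6.28 ± 0.83 (adjusted p = 6.1e-05). Droughted replicate 1 was the highest array for 7 of the 8 genes, and LOC543293 was highest on droughted replicate 3. The 8 further probe sets listed for these genes were also called higher, with log2 changes of 2.31 to 6.47. The one at 2.31, for LOC543293, lay above the control level on only 1 droughted array. It lost its call without droughted replicate 1, and with signals set to the control level, at 0.14 (adjusted p = 0.29, limma).

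The 8 locus-numbered genes with the lowest changes measured over 1000 on each well-watered array, and under drought lay between signals below the control level and 3896. LOC543355 measured 76.6, 228 and 1626 under drought and 29014, 35076 and 43238 with water, a log2 change of −6.73 ± 0.73 (adjusted p = 1.4e-05, limma). LOC543256 measured 99.6, 415 and 908 under drought and 10555, 34596 and 35508 with water (−6.04 ± 0.66, adjusted p = 1.5e-05). LOC542989 measured 16.7, 3.83 and 33.2 under drought, below the control level throughout, and 1118, 4471 and 1310 with water, at least 14.5-fold lower (adjusted p = 1.8e-05). LOC542984 had the smallest standard error of the 8, with 67.7, 192 and 464 under drought and 6983, 9418 and 7947 with water (−5.31 ± 0.44, adjusted p = 1.6e-06). LOC543496 kept the most signal, with 291, 1682 and 3896 under drought and 37835, 36716 and 40628 with water (−4.92 ± 0.64, adjusted p = 5.6e-05). LOC542880, LOC543499 and LOC543077 changed by −5.22, −5.22 and −5.09, with adjusted p of 3.4e-06 to 4e-05. In 7 of the 8, droughted replicate 1 was lowest and replicate 3 highest. LOC542989 was the exception, with its lowest signal on replicate 2. The 5 further probe sets listed for these genes were called lower too, with log2 changes of −6.33 to −3.38. All 16 genes kept their direction and call under each of the 25 alternatives. Those that do not alter the change in R, such as an S array left out, could move only the call.

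**Figure D4:**
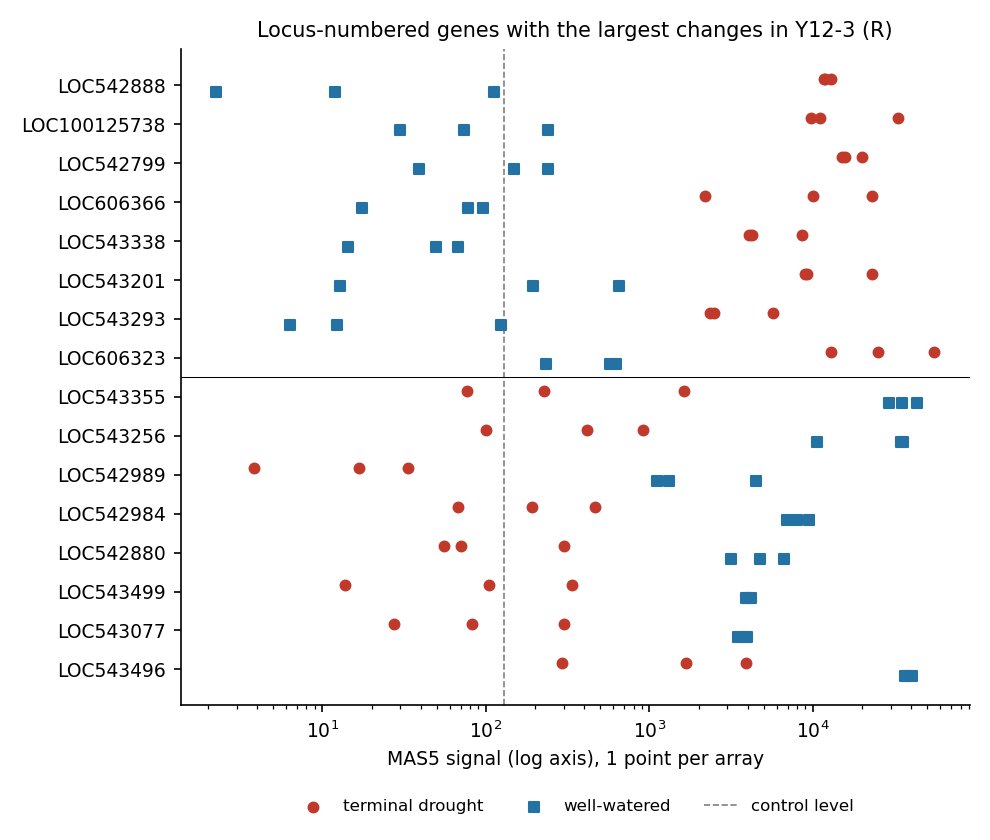
MAS5 signal (log axis) of the 8 locus-numbered genes with the highest (top) and the 8 with the lowest (bottom) log2 change in R, 1 point per array, droughted arrays as circles and well-watered arrays as squares. The dashed line is the control level of 129, and in each gene the 2 regimes do not overlap.

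The extremes of the whole array are paired with no gene. A probe set of Ta cluster 2638 measured 52615, 52310 and 37900 under drought and 7.26, 17.1 and 22.9 with water, at least 365-fold higher (adjusted p = 2e-10, limma). A probe set of TaAffx cluster 79139 measured 53974, 47928 and 42938 under drought and 29.3, 43.8 and 103 with water, at least 372-fold higher (adjusted p = 4.6e-10). In the other direction, a probe set of Ta cluster 5544 measured 11.4, 53 and 115 under drought and 38745, 49829 and 44051 with water, at least 341-fold lower (adjusted p = 2.9e-08). A probe set of Ta cluster 22984 that can bind related transcripts measured 2.21, 51.6 and 102 under drought and 34976, 46488 and 48751 with water, at least 333-fold lower (adjusted p = 3.5e-06). All 4 crossed the control level completely between the regimes.

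The 3 droughted arrays differed in how far they had moved. Among the 7608 lower probe sets, droughted replicate 1 was the lowest of the 3 arrays for 64.6% and replicate 3 the highest for 60.2%. Among the 5216 higher ones, replicate 1 was the highest for 68.7%. The median distance from the well-watered mean was −2.15, −1.72 and −1.50 on the log2 scale for the lower probe sets on replicates 1, 2 and 3, and 1.84, 1.59 and 1.49 for the higher ones. For falls of at least 16-fold the medians were −5.94, −4.73 and −3.56. Lists chosen by the change in S, from the fit that shares its spread with the R arrays, gave the same order of the R arrays. The 1856 probe sets called at least 4-fold lower in S had medians of −3.06, −2.48 and −2.05 on droughted R replicates 1, 2 and 3, and the 2064 called at least 4-fold higher in S had 2.48, 2.28 and 2.12. Without droughted replicate 1, 9854 probe sets were called in R, 4167 higher and 5687 lower.

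Most of the R response had the same direction in S, where drought changed 27.2% of the tested probe sets. The probe sets called the same way in both genotypes numbered 7474, which is 58.3% of those called in R and 71.4% of those called in S. The share of R calls with a like call in S was larger for larger changes, at 71% from 4-fold, 84.1% from 8-fold and 96.1% from 64-fold. Large changes are easier to call, and how far this enters the rise was not tested. Calls in opposite directions numbered 37 among all R calls and 0 from 16-fold. Of the 1856 probe sets at least 4-fold lower in S, 98% had a lower signal under drought in R as well, with a median change of −2.53 in R and −2.57 in S. Of the 2064 at least 4-fold higher in S, 88.2% were also higher in R, with medians of 2.30 in R and 2.72 in S. The array medians of log2 signal changed by −0.47 in R and −0.05 in S, a difference of −0.42 (exact permutation test within genotypes, two-sided, 400 relabellings, p = 0.1). The relabelling assumes no drought effect in either genotype, so its p-value does not test the difference alone.

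A response different from that of S was called for 57 probe sets, or 0.148% of the tested, with 29 changes more positive and 28 more negative in R (limma, adjusted p under 0.05). At an unadjusted p under 0.05 there were 4955, or 12.9%. The 57 depend on the processing. They were 17 to 104 with 1 array left out, 34 without well-watered replicate 3 of R and 17 without droughted replicate 3 of S, 18 without a variance trend, and 484 with a floor at the control level. Of the 12824 probe sets called in R, 38 passed this test. The test was passed by 4 locus-numbered genes, and no gene with a symbol did. LOC543479 measured 7.5, 52 and 134 in droughted R and 8.97, 8.5 and 53.2 in well-watered R, against 17242, 5580 and 3628 in droughted S and 3.32, 2.79 and 2.05 in well-watered S. It rose in S and not past the threshold in R (interaction −7.73 ± 0.99, adjusted p = 0.0063), and it kept this call under all 24 alternatives. LOC543440 measured 640, 746 and 836 in droughted R and 74.7, 81.8 and 19.6 in well-watered R, against 1847, 463 and 1024 in droughted S and 1529, 1166 and 1567 in well-watered S (interaction 4.01 ± 0.65, adjusted p = 0.027). LOC543338 measured 8633, 4041 and 4240 in droughted R and 14.3, 49.6 and 67.9 in well-watered R, against 11888, 9138 and 6691 in droughted S and 678, 834 and 1176 in well-watered S (interaction 3.25 ± 0.56, adjusted p = 0.037). A second probe set of LOC543338 had an interaction of 2.30 and was not called (adjusted p = 0.11, limma). LOC543258 measured 74, 67.4 and 87.4 in droughted R and 220, 155 and 328 in well-watered R, against 166, 158 and 113 in droughted S and 3355, 3737 and 2512 in well-watered S (interaction 2.93 ± 0.46, adjusted p = 0.025). The sizes of the 4 called interactions are not fixed where a group lies below the control level. That holds for well-watered R and well-watered S in LOC543479. It holds for well-watered R in LOC543440 (at least 5.71-fold higher in R) and LOC543338 (at least 41-fold). In LOC543258 it holds for droughted R. The fall of LOC543258 in R is known only as at least 1.73-fold, so that its interaction may be smaller than the value given. With a floor at the control level the interactions were −5.59, 2.92, 1.85 and 3.53 for LOC543479, LOC543440, LOC543338 and LOC543258. In the last 3 genes the genotypes lay further apart with water than under drought. Their calls were lost under 10, 13 and 8 of 24 alternatives, with adjusted p of up to 0.08, 0.11 and 0.13. LOC543338 lost its call without any 1 of well-watered R replicate 1, droughted R replicates 1 and 2, the 3 well-watered S arrays and droughted S replicates 2 and 3. LOC543440 lost it without any 1 of well-watered R replicates 1 and 3, droughted R replicates 2 and 3, the 3 well-watered S arrays and droughted S replicate 3. LOC543258 lost it without any 1 of well-watered R replicate 1, droughted R replicate 2, well-watered S replicates 1 and 2 and droughted S replicate 3.

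**Figure D5:**
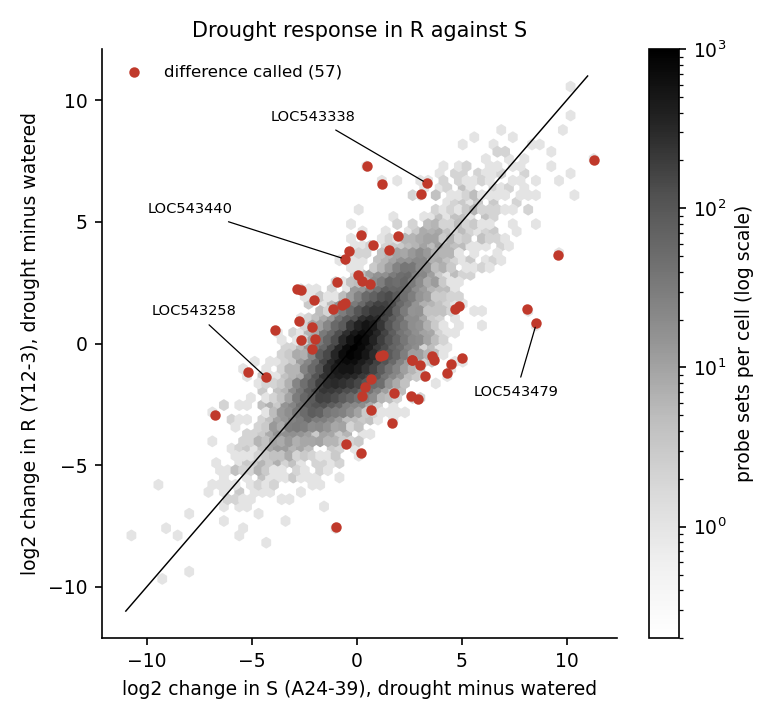
Log2 change under drought in R (vertical) against that in S (horizontal) for the 38398 tested probe sets. Grey cells count probe sets, the line marks equal changes, and the 57 probe sets whose changes differed between genotypes are red, with the 4 locus-numbered genes among them labelled.

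Probe sets of 1 transcript cluster can be recognised by the cluster number in their ID. Of 1676 clusters with at least 2 called probe sets, 1635 (97.6%) had all of them in 1 direction, 716 higher and 919 lower, and 41 were mixed. Probe sets of a cluster can share target sequence and are not independent. Tested probe sets of the Ta series were called more often than those of the TaAffx series, 40% against 23.9%, and were brighter, with median well-watered signals of 425 and 143. Higher ones made up 42.9% of the calls in the Ta series and 35.4% in the TaAffx series. Probe sets marked x, which can bind transcripts of other genes, were called in 40.5% of cases, 38.7% of them higher.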

How the data were processed

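Leaf-organ RNA was hybridised to the Affymetrix wheat array. Each deposited value is a linear intensity per probe set, from MAS5 per the submitters' processing notes. Neither labels nor headers state the MAS5 version or scaling target. With 2% trimmed at each end, the mean over all 61290 probe sets was 500.1 to 500.2 on each array, so the authors' intensities carry 1 scaling per array. No present or absent call was used. The control level of 129 came from 23 probe sets (276 values) for tag sequences and bacterial trpn, which target no wheat transcript.

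From these intensities log2(signal + 16) was computed with no further scaling. The 111 AFFX and 64 RPTR probe sets were left out. Testing required a signal over the median of the array on 3 or more of 12 arrays. One linear model with a mean for each of 4 groups used limma 3.58.1 (eBayes, trended variance; R 4.3.3), and p-values were adjusted by Benjamini-Hochberg over the 38398 probe sets tested, with a threshold of 0.05. Values are log2 change ± SE. Precision is limited by array number (median SE 0.473). The fit was tested on simulated data. Plots used matplotlib 3.10.9.

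Genes named are those with a symbol, the 8 highest and 8 lowest locus-numbered genes with non-overlapping groups, the 3 brightest in each regime, those with a called interaction, and 2 unnamed probe sets each way. The members, lists and tests were chosen with earlier results of these data known. Alternatives were pseudocounts of 1 and 64, 4 other scalings, other filters, no trend, array weights, the 6 R arrays alone, a replicate block, signals set to the control level, a 2-fold threshold and each array left out. A 99th percentile control level of 208 was tried for detection. How the probe sets relate to those a publication may name was not analysed here.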

Additional observations from a re-analysis of the deposited data

Results flagged for a closer look

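For 4 locus-numbered genes the test of the difference between the drought responses of R and S passed the threshold (limma, adjusted p of 0.0063 to 0.037). The log2 change in R minus that in S was −7.73 for LOC543479, 4.01 for LOC543440, 3.25 for LOC543338 and 2.93 for LOC543258. A second probe set of LOC543338 gave 2.30 and was not called (adjusted p = 0.11, limma). LOC543479 exceeded the control level on 1 droughted R array and on 3 droughted S arrays.

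Control probe sets left out of the tests also carried signal. The 3′ probe set for sucrose synthase, an enzyme that cleaves or forms sucrose, averaged 18135 ± 6009 under drought and 3155 ± 386 with water in R (SD, n = 3 each), a ratio of 5.75. Of the 64 reporter probe sets, 47 lay above the control level on none of the arrays and 1 on all 12. The latter averaged 63514 ± 14289 under drought and 99108 ± 28361 with water in R. It ranked the R arrays in the same order as the mean of the spiked hybridization controls did. Both were highest on well-watered replicate 3, at 128020 and 17657. Whether this probe set reads a spiked control was not tested, so its difference between regimes is not read as a drought response.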

How the results depend on the processing

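As deposited, drought was called for 12824 probe sets in R. With poly-A control scaling there were 8520, of which 4704 were lower. Against a 2-fold threshold there were 3693, of which 1646 were higher and 2047 lower. Median scaling gave 4398 lower, and hybridization control scaling 8596 higher and 2093 lower. With 1 array left out, the calls were 9854 to 13048, with 4167 to 5265 higher and 5687 to 7783 lower. Calls of at least 4-fold numbered 5065, 3257 with signals set to the control level, and 4095 to 5722 with 1 array left out. The median change of all tested was −0.322, and 0.151 with median scaling, 0.035 with quantile normalization, 0.500 with hybridization control scaling, −0.211 with poly-A control scaling, −0.117 with signals set to the control level, and −0.405 to −0.236 with 1 array left out. The dimmest class by starting level had a median of 0.092, and 0.565, 0.617 and 0.783 with median, quantile and hybridization control scaling, −0.195 without a filter, −0.234 with the level from well-watered S, −0.328, −0.446 and −0.038 with the level from well-watered replicate 1, 2 or 3 and the change from the other 2, and 0.010 to 0.349 with 1 array left out. The brightest class had −0.333, and 0.140, 0.593 and −0.206 with median, hybridization control and poly-A control scaling, and −0.386 to −0.277 with 1 array left out.

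The interaction was called for 57 probe sets, and for 171 with a pseudocount of 64, 149 at equal medians, 87 with array weights, 126 with hybridization control scaling, 18 without a trend, 484 with signals set to the control level, and 17 to 104 with 1 array left out. Drought-only and water-only probe sets numbered 485 and 1515, 799 and 867 at equal medians, 1245 and 350 when scaled on hybridization controls, 969 water-only with poly-A control scaling, and 485 to 820 and 1515 to 2991 with 1 array left out. With the control level at the 99th percentile they were 655 and 1600. The cause of each shift was not tested. The replicate block gave 12399 calls in R, 5046 higher and 7353 lower, and 46 for the interaction. Deviations of same-numbered droughted and well-watered R arrays from their group means correlated at −0.041, −0.126 and −0.120. For arrays of other numbers the correlations ran from −0.020 to 0.140. Deviations from a mean of 3 arrays are tied to each other, so these values cannot tell whether same-numbered arrays are paired. The labels give only the number, and the block stands for that number.

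Of 1394 values of named probe sets under alternatives, 1256 kept direction and call, 119 lost the call, 9 gained it and 10 changed sign. With hybridization control scaling the values that changed sign were CAT1 at 0.32, TUBA at 0.22, the second SAHH probe set at 0.03, LOC100049018 at 0.19 and LOC543448 at 0.12, and LOC100049018 measured 0.01 with quantile normalization. With 1 array left out, the uncalled LOC543372 ranged over −0.06 to 0.23, below 0 without well-watered replicate 2 (−0.01) and droughted replicates 1 and 2, and the uncalled XTH over −0.21 to 0.45, below 0 without droughted replicate 2. For probe sets below the control level in a regime, at most a lower bound of the fold is known.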
